A study of Mus musculus with 4 samples.

Results

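The keratin genes on a mouse whole-genome array were followed through 4 RNA samples. They were taken as every non-control probe whose gene symbol in the scanner files is Krt followed only by digits, which leaves out keratin-associated proteins and symbols with a letter. This gave 47 keratin genes on 62 probes, of 30222 gene symbols on 39429 probes in all. The study dealt with a mouse gene given only as A. The samples were ligament of A-transgenic mice and ligament of wild type mice, both of background strain C57BL/6J, and ligament-like tissue formed by A-transfected mesenchymal stem cells and those stem cells before transfection, both of background strain C3H. The stem cells came from mouse embryos through a cell bank. A was carried in pCAGGS, a vector whose promoter is active in most mammalian cell types, and the same plasmid was injected into fertilized eggs to make the transgenic mice. The samples are called transgenic ligament, wild type ligament, transfected tissue and stem cells below. The labels give neither the ligament's site nor the animals' age, sex or number.

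Keratins form the intermediate filaments of epithelial cells. A filament is built from pairs of 1 type I and 1 type II chain, and the pair changes with the site: Krt5 with Krt14 in the basal layer of the epidermis, Krt1 with Krt10 in the layers above it, Krt4 with Krt13 in the lining of the mouth and oesophagus, and Krt8 with Krt18 in single-layered epithelia. Hair and nail have their own chains, as does the sheath around the growing hair. Ligament cells are fibroblasts, whose main cytoplasmic filament protein is vimentin, and are not known for keratins.

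Each group held 1 array, so no value has a replicate check and no test between groups was possible. The normalised signal is the log2 background-subtracted signal of a spot minus log2 of the 75th percentile of its array, and a negative value means below that percentile. Where a gene had several probes, the one with the highest average over the 4 arrays stands for it. A gene counts as detected where the scanner software marks a probe of it well above background, and it is called higher or lower from a 2-fold difference. A gene that was dim on 1 array of a pair has only a bound ("at least"), for which the dim array was set to its lowest detected signal, or to the probe's signal where that was greater. The 75th percentile itself was 303 in transgenic ligament, 286 in wild type ligament, 2260 in transfected tissue and 1169 in stem cells, and the lowest detected value was -3.90 in transgenic ligament, -3.41 in wild type ligament, -5.71 in transfected tissue and -5.79 in stem cells. The ligament arrays could therefore show less of a weak keratin than the cell arrays. Spot noise, the SD of a log2 difference between 2 arrays at probes with repeated spots, was 0.146 for transgenic against wild type ligament and 0.199 for transfected tissue against stem cells. It covers neither dim probes nor the spread between animals or cultures. All 4 arrays lay on the same slide.

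Of the 47 keratins, 30 had a detected probe on at least 1 array, and 17 had none on any. Detected keratins numbered 24 in transgenic ligament, 23 in wild type ligament, 17 in transfected tissue and 20 in stem cells. Of all genes, 54.2% were detected in transgenic ligament, 50% in wild type ligament, 55.4% in transfected tissue and 56% in stem cells. Detected on both ligament arrays were 21 keratins, on all 4 arrays 13, and on a ligament array but no cell array 10. Over all genes, 14490 of 30183 were detected on both ligament arrays by the probe that stands for them. The other 2 counts were not made over all genes, so that they cannot be read as particular to keratins. The undetected ones were Krt4, Krt24 and Krt76 of the oral group, the corneal keratin Krt12, the simple keratin Krt20, the hair keratins Krt35, Krt36, Krt39, Krt40, Krt82 and Krt84, and the sheath keratins Krt25, Krt26, Krt27, Krt28, Krt74 and Krt75. Detected epidermal keratins counted 7 of 8 on each ligament array, 5 in transfected tissue and 6 in stem cells, while hair keratins counted 5 of 13 in transgenic ligament, 3 in wild type ligament, 5 in transfected tissue and 6 in stem cells.

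**Figure D1:**
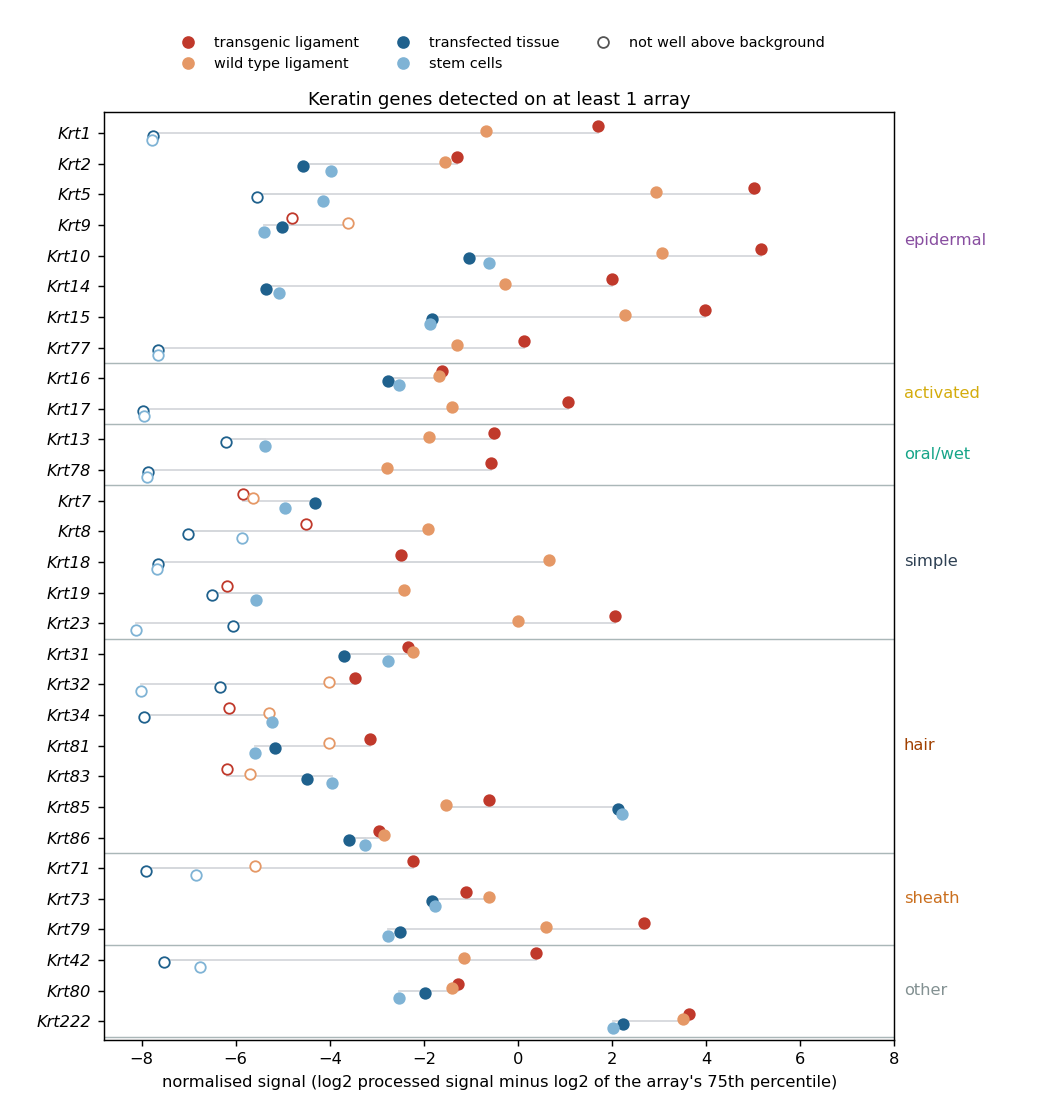
Normalised signal (log2, horizontal axis) of the 30 keratin genes detected on at least 1 of the 4 arrays, grouped by epithelial site, with 1 point per array. Filled points were well above background and open points were not. The epidermal keratins Krt5 and Krt10 reach 5.02 and 5.16 in transgenic ligament, and Krt18 is the only gene of the plot measured on both ligament arrays that falls past 2-fold there.

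Between the ligaments, 13 of the 25 keratins that could be compared were higher in transgenic ligament and 3 were lower. Over all 16348 genes compared, 6.29% were higher and 7.02% lower, 13.3% in either direction. The median log2 difference was 1.18 over the compared keratins and 1.42 over the 21 detected on both arrays, against -0.03 over all genes. The higher keratins were mostly those of stratified epithelium, and the 3 lower ones were keratins of simple epithelium. The other 22 keratins were too dim for a fold. In bulk RNA, fewer cells of a type and less RNA per cell cannot be told apart.

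Markers of other tissues were read on the same arrays. All 10 blood genes were lower in transgenic ligament (median -2.16), and their summed linear signal, in units of the array's 75th percentile, was 651 in transgenic ligament, 1960 in wild type ligament, 0.110 in transfected tissue and 0.265 in stem cells. The 8 skeletal muscle genes had 2 higher and 1 lower (median -0.38) and sums of 3887 in transgenic ligament, 4725 in wild type ligament, 0.648 in transfected tissue and 1.88 in stem cells. Of 9 fibroblast and tendon genes 4 were higher (median 0.74), and their sums were 509 in transgenic ligament, 396 in wild type ligament, 360 in transfected tissue and 352 in stem cells. Cornified envelope genes summed to 91.9 in transgenic ligament, 14.5 in wild type ligament, 1.51 in transfected tissue and 2.98 in stem cells, and desmosome genes to 59.7 in transgenic ligament, 22.0 in wild type ligament, 28.1 in transfected tissue and 12.0 in stem cells. The sum in transfected tissue rests largely on Cdsn, corneodesmosin, with 4.63 in transfected tissue and 2.29 in stem cells; 7 of 10 desmosome genes compared were lower in transfected tissue than in wild type ligament and 1 was higher (median -3.25). The summed signals of blood, muscle and cornified envelope genes were lower in both cell samples than in either ligament, but single genes could differ from their sum, as Tgm3 did with 0.04 in transgenic ligament, 1.05 in wild type ligament, 0.19 in transfected tissue and 1.44 in stem cells. The part of these tissues in the keratin differences was not tested. Of other sources of epithelium, none of 7 enamel organ genes was detected on a ligament array, 1 of 5 Merkel cell genes was in transgenic ligament and none in wild type ligament, and of 4 mesothelial genes only Msln was, on both, with -1.66 in transgenic ligament and -2.75 in wild type ligament, a difference of 1.09. Melanocyte genes had none of 3 past 2-fold, and sebaceous gland genes 1 of 3, Scd3 at 1.04.

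The basal pair moved together. Krt5, the type II chain, had a normalised signal of 5.02 in transgenic ligament, 2.93 in wild type ligament, -5.55 in transfected tissue and -4.14 in stem cells. Its type I partner Krt14 had 2.00 in transgenic ligament, -0.28 in wild type ligament, -5.35 in transfected tissue and -5.08 in stem cells. Both ligaments lay far above both cell samples for these genes, and the transgenic array was the higher of the ligaments. Krt5 was 4.26-fold and Krt14 4.86-fold higher in transgenic ligament, and the log2 difference of Krt5 minus that of Krt14 was -0.19. Krt15, a type I chain of the basal layer and the hair follicle bulge, was 3.26-fold higher in transgenic ligament. The Krt14 probe, given 5′ to 3′ as the oligonucleotide on the array, lies on chromosome 11 between 100064683 and 100065288 on the minus strand (mm9), and the second Krt5 probe on chromosome 15 at 101542056 to 101542115 on the same strand. They are shown because the basal pair carries the difference at 2 separate loci, and neither shares 15 bases with a probe of another gene.
Krt14: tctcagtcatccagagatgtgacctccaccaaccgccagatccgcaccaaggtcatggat
Krt5: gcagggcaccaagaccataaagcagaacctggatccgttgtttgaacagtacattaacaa

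The pair of the upper epidermis differed by about as much. Krt1, its type II chain, had 1.70 in transgenic ligament and -0.68 in wild type ligament, and was not well above background in transfected tissue (-7.77) or stem cells (-7.79). Krt10, the type I partner, had 5.16 in transgenic ligament, 3.07 in wild type ligament, -1.05 in transfected tissue and -0.61 in stem cells. Krt1 was 5.20-fold and Krt10 4.27-fold higher in transgenic ligament, and the log2 difference of Krt1 minus that of Krt10 was 0.29. Krt77, a type II chain of epidermis and sweat ducts, was 2.68-fold higher. Krt9, the keratin of palm and sole skin, was detected on neither ligament array, with -4.81 in transgenic ligament and -3.61 in wild type ligament. Of the 8 epidermal keratins, 6 were thus higher, and the median over the 7 compared was 2.09. Krt2 lay within 2-fold by the probe that stands for it, with a log2 difference of 0.26, against 4.12 by its other probe.

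Krt17 and Krt16 share the type II partner Krt6 and are known from hair follicles and from wounded or activated epidermis, but they did not move alike. Krt17 had 1.06 in transgenic ligament and -1.41 in wild type ligament, a 5.53-fold difference, and was not detected on the cell arrays. Krt16 had -1.61 in transgenic ligament, -1.67 in wild type ligament, -2.76 in transfected tissue and -2.53 in stem cells, so that its ligaments differed by 0.07. Of the keratins whose symbols end in a letter, Krt6a, Krt6b, Krt33a and Krt33b are on the array, and Krt6b was the only one detected, in transgenic ligament alone and too close to the detection limit for a fold.

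Oral keratins gave an incomplete picture. Krt13, the type I chain of wet stratified epithelia, had -0.51 in transgenic ligament, -1.88 in wild type ligament, -6.21 in transfected tissue and -5.37 in stem cells, and was 2.58-fold higher in transgenic ligament. Its type II partner Krt4 was not detected on any array, nor was Krt76, a type II chain of the hard palate. Krt78, a type II keratin, had -0.57 in transgenic ligament and -2.79 in wild type ligament and was 4.68-fold higher in transgenic ligament. A second Krt78 probe, which overlaps the first by 50 bases, differed by 2.17 on the log2 scale, against 2.23 for the first. With normexp background correction the log2 difference of Krt13 was 0.87, under the 2-fold call.

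Simple keratins went the other way, except for Krt23. Krt18, the type I chain of single-layered epithelia, had -2.49 in transgenic ligament and 0.66 in wild type ligament, and -7.66 in transfected tissue and -7.67 in stem cells, where it was not well above background. Only the wild type ligament lay above its array's 75th percentile, and Krt18 was 8.88-fold lower in transgenic ligament. Krt8, its type II partner, had -4.51 in transgenic ligament, where it was not well above background, and -1.91 in wild type ligament, which made it at least 3.96-fold lower in transgenic ligament. Krt19, a type I chain of simple and ductal epithelia, had -6.18 in transgenic ligament, again not well above background, and -2.43 in wild type ligament, at least 2.77-fold lower in transgenic ligament. Krt23, a type I keratin grouped here with the simple ones, had 2.06 in transgenic ligament and 0.00 in wild type ligament and was 4.17-fold higher. Krt7 and Krt20 were detected on neither ligament array. The call for Krt8 rests on 1 of 2 probes, since the other was dim on both ligament arrays, and the mean of both gave a log2 difference of -0.71. Krt19 had -0.83 with normexp background correction. The Krt18 probe lies on chromosome 15 at 101862341 to 101862400 on the plus strand (mm9) and is shown as the largest difference between the ligaments among the probes that stand for a keratin, sharing no 15 bases with another probe.
Krt18: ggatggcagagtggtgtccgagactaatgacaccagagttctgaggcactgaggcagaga

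**Figure D2:**
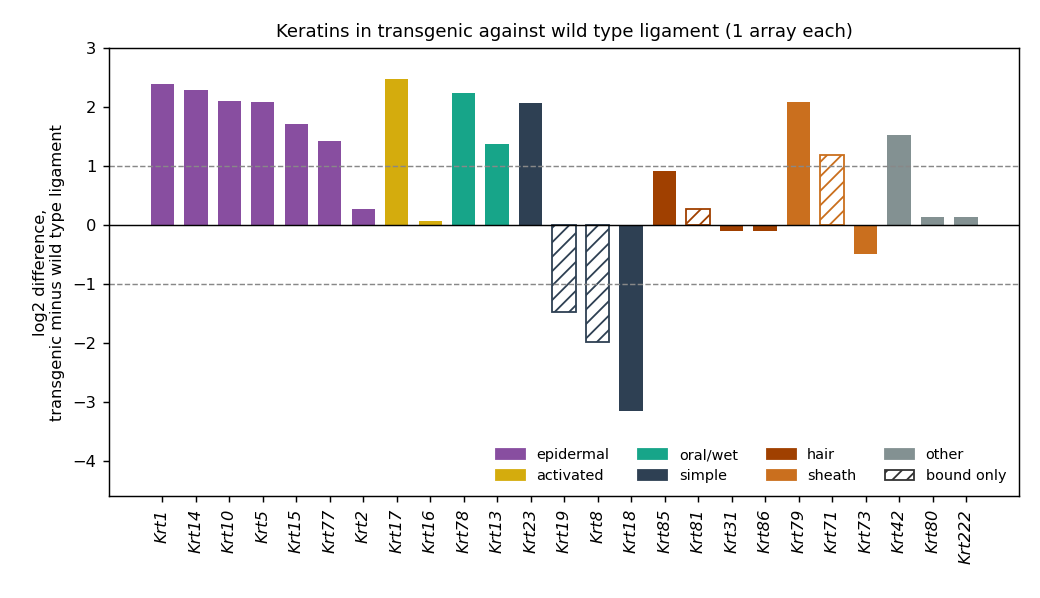
Log2 difference of normalised signal, transgenic minus wild type ligament (vertical axis), for the 25 keratins that could be compared, ordered by epithelial site and then by size, with 1 array per group. Hatched bars are bounds, and dashed lines mark 2-fold. Krt17 at 2.47 is highest and Krt18 at -3.15 lowest, and no hair keratin passes 2-fold, although Krt81 has only a bound.

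Of 13 hair keratins, 4 could be compared between the ligaments, and none of them was called past 2-fold. For Krt81 this was only a bound of 0.27, with -3.15 in transgenic ligament and a dim -4.02 in wild type ligament, so that it may differ by more. Krt32 was detected in transgenic ligament alone, too close to the detection limit for a fold. Of the 3 detected on both arrays, Krt85, described below, differed most, by 0.91, and reached 1.07 in the authors' deposited table. Krt31, a type I chain of the hair cortex, had -2.34 in transgenic ligament, -2.24 in wild type ligament, -3.70 in transfected tissue and -2.76 in stem cells. Krt86, a type II chain of the cortex, had -2.96 in transgenic ligament, -2.85 in wild type ligament, -3.59 in transfected tissue and -3.25 in stem cells. The ligaments differed by -0.10 for Krt31 and -0.11 for Krt86, each within spot noise. The median of the 4, bound included, was 0.08, and that of the 3 detected on both arrays was -0.10. Among keratins of the follicle's sheath and upper canal, Krt79, a type II chain of the canal, was 4.24-fold higher in transgenic ligament (2.68 against 0.60 in wild type ligament). Krt71, of the inner sheath, was at least 2.27-fold higher (-2.23 in transgenic ligament and a dim -5.59 in wild type ligament), although normexp background correction brought this to 0.61 on the log2 scale. Krt73, also of the inner sheath, differed by -0.49, with -1.10 in transgenic ligament and -0.61 in wild type ligament.

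Of the keratins outside these groups, Krt42, a type I chain of the mouse nail, had 0.38 in transgenic ligament and -1.14 in wild type ligament and was 2.87-fold higher. The second Krt42 probe was not well above background on any array, and the mean of both gave a log2 difference of 0.52. Krt80, a type II chain, and Krt222, a keratin-like gene, differed by 0.14 and 0.13. The genes lie in 2 clusters, type I on chromosome 11 and type II with Krt18 on chromosome 15. On chromosome 11, 7 of 11 compared keratins were higher and 1 lower in transgenic ligament, and on chromosome 15, 6 of 14 were higher and 2 lower. Higher and lower genes thus came from both clusters, with Krt18 and Krt8 among the lower ones of the second.

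Probes of the same gene did not always give the same answer. More than 1 probe could be compared between the ligaments for 6 keratins, and for 2 of them, Krt2 and Krt13, 1 probe passed 2-fold and the other did not. For Krt13 the other probe gave only a bound of 0.32, with -3.09 in transgenic ligament and a dim -4.64 in wild type ligament. It need not disagree with the first. Krt2, the type II chain of the upper epidermis, had -1.29 in transgenic ligament and -1.56 in wild type ligament by its first probe, and 1.64 in transgenic ligament and -2.48 in wild type ligament by its second. The log2 differences were 0.26 and 4.12, and the mean of both was 2.19, so the count of higher epidermal keratins would include Krt2 by the second probe. These probes start 674 bases apart on the minus strand of chromosome 15 (mm9, 101642000 to 101642059 and 101641326 to 101641385). The first was also detected in transfected tissue (-4.58) and stem cells (-3.99), where the second was not. Krt5 and Krt10, each with 2 probes, were past 2-fold by both, with log2 differences of 2.09 and 1.61 for Krt5 and 2.09 and 2.00 for Krt10.

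**Figure D3:**
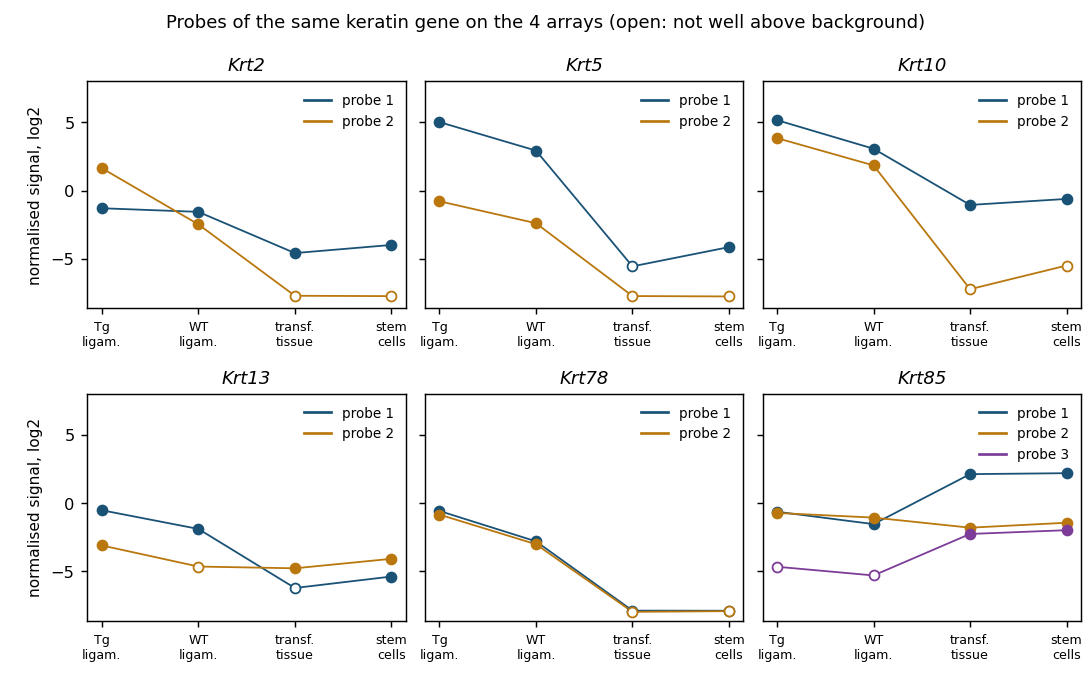
Normalised signal (log2, vertical axis) of each probe of 6 keratin genes on the 4 arrays, with 1 line per probe and open points where the probe was not well above background. The probes of Krt5, Krt10 and Krt78 run in parallel between the ligaments, those of Krt2 differ by 0.26 and 4.12, and the probes of Krt85 part on the cell arrays.

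Krt85, a type II chain of the hair matrix, was the one keratin past 2-fold higher in the transfected tissue than in wild type ligament, and its probes disagreed on this. The probe that stands for it had -0.63 in transgenic ligament, -1.53 in wild type ligament, 2.13 in transfected tissue and 2.20 in stem cells. A second had -0.72 in transgenic ligament, -1.05 in wild type ligament, -1.79 in transfected tissue and -1.43 in stem cells. The third probe had -4.66 in transgenic ligament and -5.29 in wild type ligament, not well above background on either, -2.25 in transfected tissue and -1.98 in stem cells. The log2 difference of wild type ligament over stem cells was -3.73 by the first, 0.38 by the second and a bound of -1.44 by the third, so that 2 of the 3 probes were past 2-fold. The first has no genome position in the files. The third is placed 84422 bases from the second and 1861 from the Krt83 probe. The first Krt85 probe shares a run of 16 bases with the Krt81 probe. The probes of Krt81 and Krt83, type II hair chains as well, share a run of 24 bases, in capitals below. The RefSeq symbol found for the Krt83 probe was Krt87, and none was found for the 3 Krt85 probes. Whether these probes take signal from each other's transcripts was not tested. The Krt81 and Krt83 probes are printed for their run of 24 bases. Krt81 lies at chromosome 15, 101290583 to 101290642, and Krt83 at 101263556 to 101263615, both on the minus strand (mm9).
Krt81: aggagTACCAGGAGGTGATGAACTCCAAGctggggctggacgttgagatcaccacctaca
Krt83: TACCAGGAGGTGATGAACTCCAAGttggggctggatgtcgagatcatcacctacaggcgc

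Krt222 was detected on all 4 arrays, with 3.64 in transgenic ligament, 3.51 in wild type ligament, 2.24 in transfected tissue and 2.01 in stem cells. Its probe holds a repeat of CA, and 25 other probes on the array share 20 or more bases with it. The second Krt222 probe was detected on no array. Of the 62 keratin probes, 44 share no run of 15 bases with any other probe, and 3 share 20 or more with a probe of another gene.

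The transfected tissue was also set against stem cells. A, transfection and tissue formation differ together in this comparison, so that they cannot be told apart. None of the 20 keratins compared was higher and 1 was lower, against 11.1% higher and 13% lower of 17787 genes, 24.1% in either direction. The exception was Krt5, at least 2.66-fold lower in transfected tissue (-5.55, not well above background, against -4.14 in stem cells). Normexp background correction gave -0.88 for it, under the 2-fold call. The second Krt5 probe was not well above background in transfected tissue (-7.73) or stem cells (-7.76) and gave no difference. The 16 detected on both arrays lay between -0.94 (Krt31) and 0.65 (Krt7), with a median of -0.07. Krt13, Krt19 and Krt34 were dim in transfected tissue and had only bounds, of -0.33, -0.14 and -0.47, so that they may lie lower. With the software's looser mark of a positive and significant signal, Krt34 had -2.71. The median over all 20, bounds included, was -0.18. Over all genes, 15721 of 30183 were detected on both cell arrays by the probe that stands for them. The 17 keratins detected in transfected tissue were also detected in stem cells, and many lay near the detection limit. Krt7, Krt9 and Krt83 were detected on both cell arrays and Krt34 in stem cells, and none of these 4 on a ligament array. Among those further above it, Krt31 had -3.70 in transfected tissue and -2.76 in stem cells, Krt80 differed by 0.56 and Krt10 by -0.44, or -1.09 by the mean of its probes. Krt15 had -1.83 in transfected tissue and -1.86 in stem cells, and Krt73 -1.82 in transfected tissue and -1.75 in stem cells. The basal pair, which was higher in transgenic ligament, was not higher in the transfected tissue, where Krt14 differed by -0.27.

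Wild type ligament was compared with stem cells and, sharing the ligament array, the transfected tissue with wild type ligament. In wild type ligament 19 of 23 keratins were higher than in stem cells and 1 was lower, against 37.8% higher and 24.5% lower over all genes compared, 62.3% in either direction. In the transfected tissue 1 of 23 was higher and 20 were lower than in wild type ligament, against 23.2% higher and 39.5% lower over all genes, 62.6% in either direction. Krt5 was 135-fold higher and Krt10 12.8-fold higher in wild type ligament than in stem cells, Krt18 at least 87.6-fold and Krt23 at least 55.6-fold. By the second Krt5 probe the log2 difference was a bound of 3.40, against 7.07 by the first, and by the second Krt10 probe a bound of 7.34, against 3.68. Over the alternative settings the log2 difference lay between 4.20 and 8.33 for Krt18 and between 4.07 and 8.11 for Krt23. Epidermal and simple keratins were both higher there, 7 of 7 and 4 of 4, whereas 2 of the 3 hair keratins compared lay within 2-fold and Krt85 was lower by the probe that stands for it. Against the transfected tissue, Krt5 was at least 358-fold and Krt18 at least 82.6-fold higher in wild type ligament. For transfected tissue over wild type ligament, the second Krt5 probe gave a log2 bound of -3.31. Over the alternative settings this log2 difference lay between -8.49 and -5.98 for Krt5 and between -8.32 and -4.76 for Krt18. Strain and origin differ together in these comparisons, so that they cannot be told apart. Scaling also mattered: the median of all genes was 0.30 for wild type ligament over stem cells and -0.14 after quantile normalization, with 37.8% higher and 24.5% lower against 30.4% and 30.6%. For transfected tissue over wild type ligament the median was -0.41, and 0.15 after quantile normalization, with 23.2% higher and 39.5% lower against 29.9% and 29.5%.

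Genes that work beside keratins were then read in transgenic against wild type ligament. Of 13 genes compared for desmosomes, the junctions that anchor keratin filaments between cells, 9 were past 2-fold higher, with no gene lower (median 1.57). The filament linker desmoplakin, Dsp, had 2.10 in transgenic ligament and -0.14 in wild type ligament, a log2 difference of 2.25, and the plakophilin Pkp1 differed by 2.18. Of 9 hemidesmosome genes, which anchor the basal cell to its basement membrane, 2 were higher and 7 within 2-fold, the integrin chain Itgb4 at 1.35 and the collagen Col17a1 at 1.12. The junction between cells therefore had more of its genes past 2-fold than the junction with the matrix, although the difference between these lists was not tested. Cornified envelope genes, which build the dead outer layer of skin, had 7 of 12 higher and 2 lower (median 1.22). Loricrin, Lor, the main envelope protein, had 6.31 in transgenic ligament and 3.33 in wild type ligament, while Crnn, cornulin, was at least 2.22-fold lower and the transglutaminase Tgm3 2.01-fold lower in transgenic ligament.

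Regulators of stratified epithelium were less uniform. Of 11 compared, 6 were higher and none lower (median 1.16, or 0.36 over the 7 detected on both arrays), with Klf5 at 1.64 and Grhl1 at 1.35. Trp63, the p63 factor that basal keratinocytes depend on, had 2.76 in transgenic ligament and 2.94 in wild type ligament, a difference of -0.18. Of 11 genes from a list for single-layered epithelium, 5 were higher and the other 6 within 2-fold (median 0.92). These genes are not restricted to that epithelium, so the list cannot be set against Krt8, Krt18 and Krt19. Cdh1, E-cadherin, differed by 1.66 and the small GTPase gene Rab25 by 2.02, while Spint2 differed by -0.72 and the claudin gene Cldn3 by -0.67. Of 7 hair follicle genes 3 were higher, with a median of 0.16. Of 20 keratin-associated proteins, which crosslink hair keratins, 3 were higher and 1 was lower, with a median of 0.19. Of 11 other intermediate filament genes 3 were higher, with a median of 0.16. Vimentin, Vim, had 4.21 in transgenic ligament and 4.05 in wild type ligament.

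**Figure D4:**
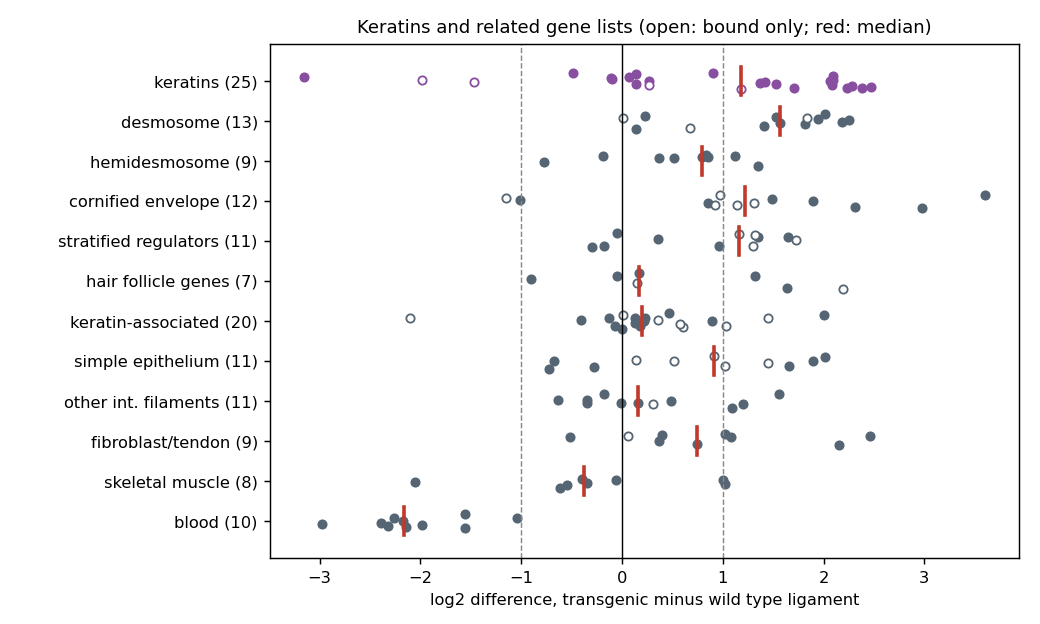
Log2 difference, transgenic minus wild type ligament (horizontal axis), of the compared keratins and of the compared genes of 11 related lists, with the number of genes in brackets, open points for bounds and a red bar at each median. Keratins spread from -3.15 to 2.47 around a median of 1.18, next to desmosome genes at 1.57 and blood genes at -2.16.

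The profiles of 2 pairs were used to find genes that ran most like keratins over the 4 arrays, by the distance between mean-centred log2 values. Nearest to the mean of Krt5 and Krt14, among 13202 genes, were Zmynd17 (0.895), Nrap, an actin-binding protein of striated muscle (1.16), Synpo (1.22), Kifc5c-ps (1.26) and Igfbp6 (1.31). The nearest keratin was Krt10, at rank 116. Krt8 and Krt18 were detected together on 1 array, wild type ligament, and Krt18 without Krt8 in transgenic ligament. Their profile thus rests partly on values not well above background, and its distances are a rough guide. Close to their mean, among 15045 genes, were Mrgpra2b (0.359), Rhbdl1 (0.402) and Fcna (0.419), behind 2 transcripts with no gene symbol, and of these 3 genes only Rhbdl1 was detected on all arrays. These 4 points share their libraries with every keratin value above.

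The promoters of 33 of the 47 keratins were found in the RefSeq table (GRCm38.p6), each 250 bases before to 50 after the gene's start. Krt1, Krt4, Krt15, Krt16, Krt17, Krt19, Krt35, Krt74, Krt80, Krt81, Krt83, Krt85, Krt86 and Krt222 had no entry. The letters TATAAA, on either strand, were found in 17 of the 33, or 51.5%, against 13.6% of all 32851 promoters. On the gene's strand with its first base between -40 and -20 from the start, the motif was in 13, or 39.4%, against 1.99% of all. TGANTCA, the AP-1 motif, was in 1 keratin promoter, that of Krt13 (3.03%, against 7.81% of all), and the GC box GGGCGG in 2, those of Krt7 and Krt75 (6.06%, against 35.7%). Below are 100 bases before and 10 from the start, 5′ to 3′ on the gene's strand, of 2 keratins that were higher and 2 that were lower in transgenic ligament, with TATAAA in capitals. It stands at -26 in Krt10 and at -1 in Krt8, and is not in the windows of Krt5 and Krt18. Its presence therefore did not divide these 4 genes by direction, and a match is a description, not a site.
Krt10, chr11:99389355-99389464, minus strand: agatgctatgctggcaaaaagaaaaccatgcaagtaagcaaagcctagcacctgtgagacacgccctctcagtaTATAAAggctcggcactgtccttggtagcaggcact
Krt5, chr15:101712896-101713005, minus strand: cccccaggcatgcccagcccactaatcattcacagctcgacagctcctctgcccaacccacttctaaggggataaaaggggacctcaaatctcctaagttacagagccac
Krt8, chr15:102004333-102004442, minus strand: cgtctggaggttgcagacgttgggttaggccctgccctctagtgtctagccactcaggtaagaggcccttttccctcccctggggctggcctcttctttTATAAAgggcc
Krt18, chr15:102028116-102028225, plus strand: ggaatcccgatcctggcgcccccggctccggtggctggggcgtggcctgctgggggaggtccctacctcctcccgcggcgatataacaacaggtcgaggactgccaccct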

How the data were processed

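Total RNA of 4 samples was labelled with Cy3 and hybridised to Agilent single-colour arrays, per the labels' protocols. Per the file headers, the deposited scanner files hold intensity on a linear scale, background-subtracted, from Feature Extraction 10.7.1.1, with mm9 probe positions; the submitters' processing notes name version 9.5.1.1, and the difference was not settled. The authors' deposited value table, also linear intensity, has no stated normalization. Each array held 44397 spots, of which 43020 were not controls and 155 to 281 were outliers and were left out; none was saturated. Spots of a probe were averaged. Every keratin could be named; of each other list, up to 6 genes with the largest difference between the ligaments, measured on both. Crnn, Vim and Krt6b were named after their values were seen. The members and lists were chosen with earlier results of these data known. Keratin groups follow epithelial site. Alternatives, 8 in all, changed 1 choice each (limma 3.58.1 in R 4.3.3, normexp offset 50). Calling was tested on simulated data. Exon or UTR positions of the probes are not given, as no mm9 annotation was used here. The number of arrays, 1 per group, limits the precision. Some items are not reported here.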

Additional observations from a re-analysis of the deposited data

Results flagged for a closer look

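One keratin differed past 2-fold in opposite directions in the 2 comparisons of a sample carrying A with 1 of the same strain without it. In the cell samples, A came together with transfection and tissue formation, so that these cannot be told apart. Krt5 had a log2 difference of 2.09 in transgenic over wild type ligament and a bound of -1.41 in transfected tissue over stem cells. The difference between these log2 values was not tested, and the bound became -0.88 with normexp background correction. The bound rests on 1 of 2 Krt5 probes, as the second was not well above background in transfected tissue or stem cells.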

How the results depend on the processing

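Across 8 alternatives, 674 keratin differences kept their side of 2-fold, 19 dropped under it and 7 passed it, and none past 2-fold changed direction. No paired analysis was possible because each group holds 1 array. In transgenic over wild type ligament, the count of higher keratins lay between 11 and 16 and the epidermal median between 1.89 and 2.15. The share of all genes called higher there ran from 2.47% with normexp background correction to 9.92% with the looser mark described below. With normexp background correction the medians were 0.92 for Krt16 and Krt17, -0.93 for simple and 0.61 for sheath keratins. The count lower in transfected tissue than in stem cells was 0, against 12.4% of all genes. With only genes detected on both arrays, the simple median was -0.55 and the sheath median 0.80. The count lower in transgenic ligament was then 1, against 5.38% of all genes. That lower in transfected tissue than in stem cells was 0, against 11.5%. In wild type ligament 11 were higher than in stem cells, against 34.2%, and in transfected tissue 9 were lower than in wild type ligament, against 36.05%. Fewer genes are compared in this setting. With the software's looser mark of a positive and significant signal, 37 keratins were detected in transgenic ligament and 28 in transfected tissue. By that mark 6 were lower in transgenic ligament, against 9.61% of all genes. In transfected tissue 5 were higher and 4 lower than in stem cells, against 13.2% and 15.6%. In wild type ligament 2 were lower than in stem cells, against 23.6%. In transfected tissue 3 were higher than in wild type ligament, against 22.5%. Detection of all genes by that mark was not counted. The deposited table put Krt85 past 2-fold in transgenic ligament (1.07). The cause of the normexp changes was not tested. Signal over background limits every keratin near the detection limit.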
